A study of Mus musculus with 11 samples.

Results

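Genes of cholesterol synthesis and of fatty acid synthesis and desaturation were followed through early caerulein injury of the mouse pancreas at 2 ages. The genes were taken by name from the gene count table, 34 genes of 54532, of which 22 belong to the sterol pathway and 12 to the fatty acid pathway. Polyadenylated RNA of whole pancreas from C57BL/6JRj mice on laboratory chow gave 11 sequenced libraries, which the labels number by mouse. The groups were aged mice (18 months) given caerulein, labelled A_5H (3 libraries), aged untreated mice, A_control (2 libraries, numbered 2 and 3), young mice (7 weeks) given caerulein, Y_5H (3 libraries), and young untreated mice, Y_control (3 libraries). Caerulein mimics the hormone cholecystokinin, which drives acinar cells to secrete, and injures these cells in excess. It was injected into the peritoneum at 125 µg/kg in 4 hourly doses. The time of sampling is known only as the label 5H, because the study's notes can be read in more than 1 way. The stated question was how aging affects the start of pancreatitis. The labels of untreated mice name no mock injection, so injection and handling cannot be told apart from caerulein.

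Cells build cholesterol from acetyl-CoA through mevalonate and squalene, and build fatty acids from the same precursor through malonyl-CoA. Both routes are under transcription factors of the SREBP family, which are held in the endoplasmic reticulum by the Insig proteins when sterols are plentiful. SREBP-2, the product of Srebf2, acts mainly on sterol genes, and SREBP-1c, a product of Srebf1, mainly on fatty acid genes. The acinar cell carries an extensive endoplasmic reticulum, so its membranes need both kinds of lipid.

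The promoters shown are those of Hmgcs1 and Msmo1, sterol genes that were higher after caerulein at both ages, of Insig1 and Lss, sterol genes that were lower at both ages, and of Fasn, whose call depended on 1 library. Each window runs from 250 bases before to 50 bases after the RefSeq gene start (GRCm38.p6) and is written 5′ to 3′ on the strand of the gene. Capitals mark 3 motifs that were searched on both strands, the sterol response element TCACNCCAC, the E-box CACGTG and the NF-Y box CCAAT, which reads ATTGG on the other strand.
Hmgcs1 (chr13:119690101-119690400, plus strand):
Hmgcs1: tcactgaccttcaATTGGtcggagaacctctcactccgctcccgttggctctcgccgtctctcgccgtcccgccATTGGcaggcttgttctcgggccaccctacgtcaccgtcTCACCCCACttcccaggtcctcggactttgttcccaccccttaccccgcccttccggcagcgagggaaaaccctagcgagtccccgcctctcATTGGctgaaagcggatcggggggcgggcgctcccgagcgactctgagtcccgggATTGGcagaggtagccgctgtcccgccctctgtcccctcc
Msmo1 (chr8:64733529-64733828, minus strand):
Msmo1: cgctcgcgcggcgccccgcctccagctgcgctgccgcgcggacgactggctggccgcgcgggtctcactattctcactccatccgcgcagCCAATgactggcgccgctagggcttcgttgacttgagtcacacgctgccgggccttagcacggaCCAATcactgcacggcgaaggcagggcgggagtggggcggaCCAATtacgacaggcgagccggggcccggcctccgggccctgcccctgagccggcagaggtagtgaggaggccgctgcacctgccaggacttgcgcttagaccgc
Insig1 (chr5:28071162-28071461, plus strand):
Insig1: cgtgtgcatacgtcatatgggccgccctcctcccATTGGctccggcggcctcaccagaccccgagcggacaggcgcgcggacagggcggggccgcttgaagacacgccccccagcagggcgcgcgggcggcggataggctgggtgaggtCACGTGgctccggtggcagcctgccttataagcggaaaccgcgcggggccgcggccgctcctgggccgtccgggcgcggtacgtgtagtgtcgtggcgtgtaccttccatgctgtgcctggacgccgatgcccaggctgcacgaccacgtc
Lss (chr10:76531355-76531654, plus strand):
Lss: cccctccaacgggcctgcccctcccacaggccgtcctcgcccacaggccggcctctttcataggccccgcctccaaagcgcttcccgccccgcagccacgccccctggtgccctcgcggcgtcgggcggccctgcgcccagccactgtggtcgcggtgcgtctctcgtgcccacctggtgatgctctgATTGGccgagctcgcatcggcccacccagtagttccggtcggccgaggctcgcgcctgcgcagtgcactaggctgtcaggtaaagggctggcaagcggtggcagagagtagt
Fasn (chr11:120824498-120824797, minus strand):
Fasn: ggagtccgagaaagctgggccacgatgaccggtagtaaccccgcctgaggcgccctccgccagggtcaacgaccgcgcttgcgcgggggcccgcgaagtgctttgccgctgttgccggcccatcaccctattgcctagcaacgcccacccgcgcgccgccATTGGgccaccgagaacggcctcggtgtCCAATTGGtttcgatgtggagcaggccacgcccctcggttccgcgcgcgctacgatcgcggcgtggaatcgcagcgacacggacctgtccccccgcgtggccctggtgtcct

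The Hmgcs1 window held the sterol response element 137 bases before the start and 4 NF-Y boxes. The Msmo1 window held 3 NF-Y boxes, at 160, 96 and 55 bases before the start. The Insig1 window held 1 NF-Y box and 1 E-box, the Lss window 1 NF-Y box, and the Fasn window 3 NF-Y boxes, of which the CCAAT and the ATTGG nearest the start share 2 letters. RefSeq windows were found for 27 of the 34 members, with 35 windows in all because some genes have several starts. An NF-Y box stood in 24 of the 35 member windows (68.6%), against 37.4% of all 32851 windows of the table. A sterol response element in these letters stood in 1 member window (2.86%), against 1.24% of all windows, and an E-box in 5 (14.3%), against 7.15%. No match of one motif overlapped a match of another motif. The NF-Y box did not separate the sterol genes by direction, since it stood in 5 of the 5 genes with a window that were higher at both ages and in 5 of the 6 that were lower at both ages. A match is a description of the letters only.

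Total counts ranged from 14223190 to 26537091 reads per library. One library stood apart from the other 10. The library of young untreated mouse 2 held 581.9 CPM (counts per 1000000, scaled by TMM) summed over 10 adipocyte markers, against 14.04 to 52.5 CPM in the others. The range over the groups was 15.6 to 26.0 CPM in aged caerulein, 18.4 to 52.5 CPM in aged untreated, 20.7 to 30.4 CPM in young caerulein and 14.04 to 581.9 CPM in young untreated libraries. Adipoq, a hormone of fat cells, was at 30.6 CPM in that library, 2.18 CPM in aged untreated mouse 2, 1.69 CPM in young untreated mouse 1, and at 0 in aged untreated mouse 3 and in young untreated mouse 3. B cell and plasma cell markers summed to 169 CPM in the library of young untreated mouse 2, against at most 4.48 CPM in any other. Results that use the young untreated group are therefore given with and without this library. The tissue label was borne out by 8 acinar markers, which summed to 233900 to 578500 CPM. They were lower in each caerulein library (233900 to 306200 CPM) than in each untreated library (335300 to 578500 CPM), and 5 ductal markers summed to 191 to 226 CPM in caerulein and 34.7 to 87.2 CPM in untreated libraries. In bulk tissue, fewer cells of a type and less RNA per cell cannot be told apart, and the part of cell makeup in the member results was not tested.

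Of the 34 members, 33 passed the filter on low counts. Fdps, farnesyl diphosphate synthase, did not, with 37 reads in all 11 libraries together. Every fold change below is the log2 fold change ± SE of 1 edgeR quasi-likelihood fit over all 11 libraries, unless it is given as without mouse 2, which means the same fit over the other 10. A gene was called at a Benjamini-Hochberg adjusted p below 0.05 over all 14113 genes tested.

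After caerulein the sterol genes moved in both directions, as genes at large did, and the desaturases Scd2, Fads1 and Fads2 were lower. In aged mice, 6 of 21 tested sterol genes were higher and 7 lower after caerulein. Over all genes tested, 26.8% were called higher and 21.3% lower in that comparison. In young mice, 7 sterol genes were higher and 7 lower, and the shares over all genes were 27.4% higher and 23.9% lower. The counts of higher sterol genes lie near these shares and those of lower ones somewhat above, and neither was tested against them. The same 6 sterol genes were higher at both ages (Srebf2, Insig2, Hmgcs1, Sqle, Cyp51 and Msmo1), and the same 6 were lower at both ages (Insig1, Acat2, Lss, Nsdhl, Ebp and Dhcr7). Of these calls, those of Cyp51 and of Dhcr7 in young mice passed under only 12 of the 22 alternative settings each. With library totals alone as scaling, the calls of Ebp at both ages, Insig1 in young mice and Dhcr7 in aged mice were lost too (adjusted p = 0.0639 to 0.425). The median log2 fold change of the sterol genes was -0.40 in aged and -0.14 in young mice, beside 0.07 and -0.06 for all genes. That of the 12 fatty acid genes lay between -0.57 (Acly) and -0.32 (Elovl6) in aged mice. In young mice it lay between -1.28 (Acaca) and -1.25 (Fasn), 2 values that turned on young untreated mouse 2. In the fatty acid pathway, 0 of 12 genes were higher and 6 lower in aged mice. The genes with an unadjusted p below 0.05 there were the same 6, and DESeq2 also called 0 higher. Both fits share the spread of each gene over all 4 groups, so young untreated mouse 2 enters the aged calls too. With only the aged groups fitted, Fasn (0.62, adjusted p = 0.0007) and Me1 (2.04, adjusted p = 4.48e-06) were called higher. In young mice 1 fatty acid gene was higher and 5 lower. Acly, Scd2, Elovl5, Fads1 and Fads2 were lower at both ages. The counts depend on the scaling, since library totals alone moved the median log2 fold change of all genes to 0.69 in aged and 0.43 in young mice. With that scaling 6 sterol genes were higher and 5 lower in aged mice, where 38.5% and 7.57% of all genes were called. In young mice 9 were higher and 3 lower, where 37.5% and 8.61% of all genes were called, and the lower fatty acid genes were Scd2, Fads1 and Fads2 at both ages, 3 in number. No test of the difference between the pathways was made, because the genes of a pathway are not replicates.

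Without young untreated mouse 2, the sterol counts hardly moved and the fatty acid counts did. The fit then gave 6 sterol genes higher and 7 lower in aged mice, against 30.7% and 27.7% of the 13567 genes tested. At 7 weeks it gave 7 sterol genes higher and 8 lower, against 30.8% and 26.7% of all genes. Fatty acid genes were then higher in 2 cases and lower in 7 in aged mice, and higher in 4 and lower in 5 in young mice.

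**Figure D1:**
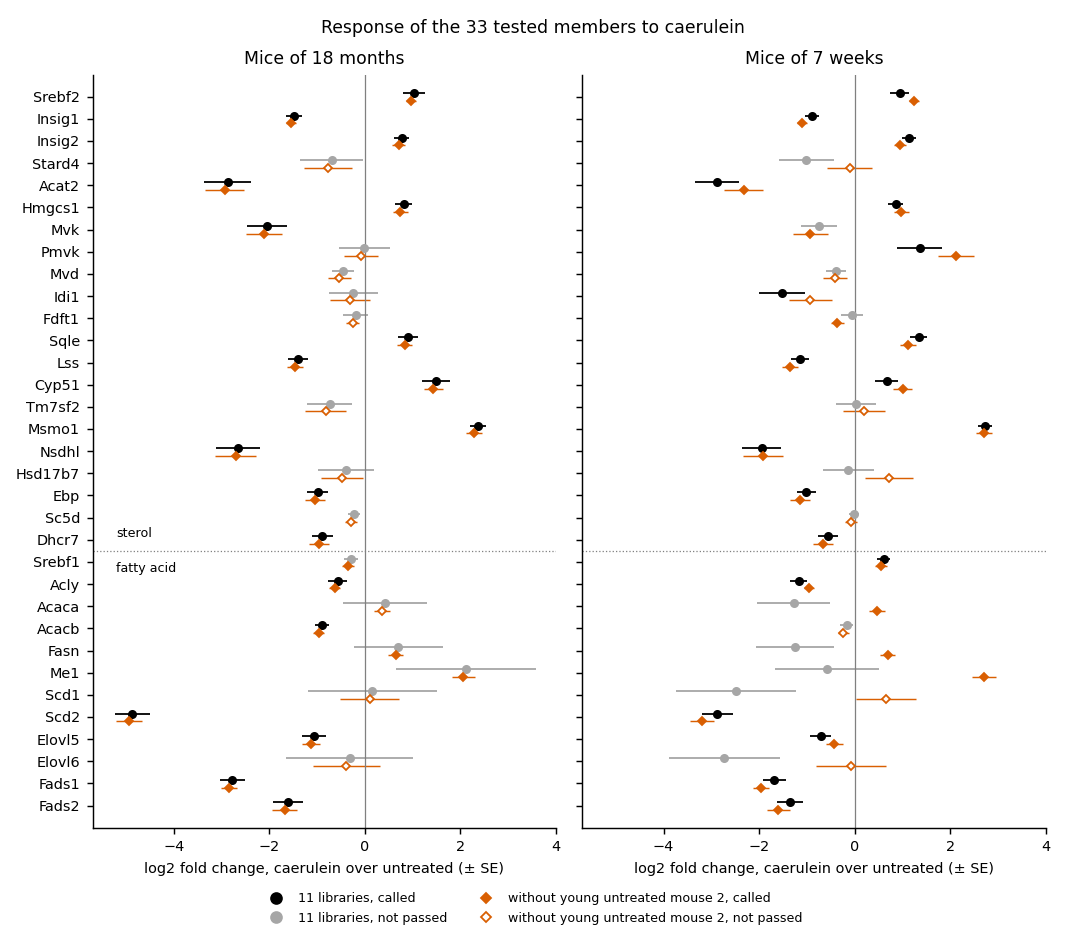
Log2 fold change (± SE) of caerulein over untreated for the 33 tested members, mice of 18 months on the left and of 7 weeks on the right, from the fit over 11 libraries (circles, black where called) and without young untreated mouse 2 (diamonds, filled where called). Msmo1 is the highest circle among the sterol genes at both ages and Scd2 the lowest circle at 18 months, while Acaca, Fasn and Me1 change side at 7 weeks once mouse 2 is left out.

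Of the regulators, Srebf2 was higher at both ages. It stood at 47.6, 49.3 and 47.6 CPM in aged caerulein mice, against 21.5 and 25.4 CPM in aged untreated mice. Among young mice it stood at 44.7, 46.7 and 46.8 CPM after caerulein, against 19.05, 34.05 and 18.4 CPM untreated. The groups did not overlap at either age, and mouse 2 was the highest young untreated library. The log2 fold change was 1.04 ± 0.23 in aged (adjusted p = 0.00278) and 0.95 ± 0.20 in young mice (adjusted p = 0.00194).

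Insig1 (ENSMUSG00000045294, mm10 chr5:28071363-28078662, plus strand) and Insig2 encode related proteins of the endoplasmic reticulum that retain the SREBP escort protein Scap, and they moved in opposite directions. Insig1 had 27.3, 27.5 and 31.4 CPM in aged caerulein mice, against 71.7 and 89.2 CPM in aged untreated mice. Its young libraries had 25.2, 25.1 and 24.3 CPM after caerulein, against 50.6, 35.7 and 52.1 CPM untreated. Each treated library lay below each untreated library of its age, with a log2 fold change of -1.49 ± 0.17 in aged (adjusted p = 1.83e-05) and -0.89 ± 0.15 in young mice (adjusted p = 0.000439). Insig2 had 19.1, 16.3 and 16.5 CPM in aged caerulein mice, against 10.7 and 9.64 CPM in aged untreated mice. In young mice it had 21.2, 19.2 and 20.3 CPM after caerulein, against 9.39, 7.55 and 10.8 CPM untreated. Each treated library lay above each untreated one, with a log2 fold change of 0.77 ± 0.16 in aged (adjusted p = 0.00186) and 1.13 ± 0.14 in young mice (adjusted p = 3.72e-05). Stard4, a carrier of cholesterol between membranes, had 11 to 111 reads per library and was not called at either age (-0.70 ± 0.66 in aged and -1.01 ± 0.57 in young mice).

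In the mevalonate arm, which runs from acetyl-CoA to the isoprenoid building blocks, the opening enzymes went opposite ways. Hmgcs1, the cytosolic HMG-CoA synthase, had 10.5, 10.2 and 9.27 CPM in aged caerulein mice, against 5.12 and 6.17 CPM in aged untreated mice. At 7 weeks it had 9.80, 9.68 and 10.1 CPM after caerulein, against 5.06, 6.63 and 4.60 CPM untreated. The groups did not overlap, with a log2 fold change of 0.81 ± 0.18 in aged (adjusted p = 0.00289) and 0.85 ± 0.16 in young mice (adjusted p = 0.000773). Acat2, the cytosolic thiolase one step before it, averaged 0.419 ± 0.0591 CPM in aged mice after caerulein (SD, n = 3) and 3.10 ± 0.0152 CPM in aged mice without it (n = 2). The young means were 0.402 ± 0.149 CPM after caerulein and 2.99 ± 1.80 CPM without it (n = 3 each). It was lower by -2.87 ± 0.49 in aged (adjusted p = 0.00046) and by -2.89 ± 0.46 in young mice (adjusted p = 0.00026) on the log2 scale. This gene rests on few reads, 343 in all libraries together, and has a close relative, Acat3, to which reads could be misassigned. Mvk, mevalonate kinase, was lower in aged mice (-2.04 ± 0.42, adjusted p = 0.00161) and not called in young mice (-0.75 ± 0.37, adjusted p = 0.109), although its treated and untreated libraries did not overlap there either. Without mouse 2 it was lower in young mice too (-0.93 ± 0.36, adjusted p = 0.0358).

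The next enzymes of this arm differed by age in their calls. Pmvk, phosphomevalonate kinase, was higher in young mice (3.92, 4.62 and 4.94 CPM after caerulein, against 0.843, 3.16 and 1.15 CPM untreated). Its log2 fold change there was 1.36 ± 0.47 (adjusted p = 0.0297) and 2.11 ± 0.37 without mouse 2 (adjusted p = 0.000103). The call passed under 16 of the 22 alternatives and was lost without young untreated mouse 1 or 3, without young caerulein mouse 2 or 3 (adjusted p = 0.0677 to 0.0889), and with only the young groups in the fit (adjusted p = 0.0521). In aged mice Pmvk had 1.76, 3.02 and 1.05 CPM after caerulein, against 1.93 and 2.00 CPM untreated, and these groups overlapped. Idi1, which interconverts the isoprenoid units, was lower in young mice (-1.52 ± 0.48, adjusted p = 0.0186), but that call was lost without mouse 2 (-0.93 ± 0.45, adjusted p = 0.0859). The call passed under 14 of the 21 alternatives that tested Idi1. It was also lost with an adipocyte marker score as covariate (adjusted p = 0.137), with library totals (adjusted p = 0.118), and without young caerulein mouse 1 or 2 (adjusted p = 0.0518 and 0.0608). Each young caerulein library held 12 reads of Idi1. Mvd, which makes isopentenyl diphosphate, was not called at either age (-0.46 ± 0.24 in aged and -0.39 ± 0.21 in young mice). Of the 6 tested genes of the arm, 1 was higher and 2 lower in aged mice, and 2 were higher and 2 lower in young mice. The shares over all genes were 26.8% higher and 21.3% lower in aged mice, and 27.4% and 23.9% in young mice.

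From squalene to cholesterol, 3 of 11 genes were higher and 4 lower at each age. Beside these counts, 26.8% of all genes were higher and 21.3% lower in aged mice, and 27.4% and 23.9% in young mice. The largest increase of all members at both ages was in Msmo1 (ENSMUSG00000031604, mm10 chr8:64718139-64733792, minus strand), which oxidises the methyl groups removed from the sterol ring after Cyp51. Msmo1 had 20.6, 21.6 and 21.2 CPM in aged caerulein mice, against 3.53 and 4.60 CPM in aged untreated mice. Among young mice it had 21.4, 22.5 and 17.5 CPM after caerulein, against 3.04, 3.24 and 2.99 CPM untreated. The groups were far apart, with a log2 fold change of 2.36 ± 0.17 in aged (adjusted p = 5.84e-07) and 2.72 ± 0.14 in young mice (adjusted p = 4.64e-08), and young untreated mouse 2 was like its neighbours for this gene. This ranking is that of the fit over all 11 libraries. Without mouse 2, Me1 (2.72 ± 0.25) and Msmo1 (2.71 ± 0.17) were level in young mice.

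Sqle, squalene epoxidase, which catalyses a rate-limiting oxygenation of the pathway, had 15.8, 14.5 and 17.4 CPM in aged caerulein mice, against 7.73 and 9.21 CPM in aged untreated mice. Its young libraries had 11.9, 13.6 and 14.1 CPM after caerulein, against 6.75, 4.04 and 5.01 CPM untreated. Each treated library was above each untreated one of its age, with a log2 fold change of 0.90 ± 0.20 in aged (adjusted p = 0.00297) and 1.34 ± 0.18 in young mice (adjusted p = 7.47e-05). Cyp51, the lanosterol demethylase, had 10.6, 8.53 and 9.82 CPM in aged caerulein mice, against 3.36 and 3.47 CPM in aged untreated mice. In young mice it had 6.40, 7.43 and 6.08 CPM after caerulein, against 2.70, 6.04 and 3.68 CPM untreated, so young untreated mouse 2 came close to the treated libraries. Its log2 fold change was 1.498 ± 0.29 in aged (adjusted p = 0.00119) and 0.67 ± 0.25 in young mice (adjusted p = 0.0391). Without mouse 2 the young value was 1.01 ± 0.20 (adjusted p = 0.00027). The young call passed under 12 of the 22 alternative settings, and it did not pass with DESeq2 (adjusted p = 0.0514), with only the young groups in the fit (adjusted p = 0.113), or without any 1 young library other than that of untreated mouse 2 (adjusted p = 0.0582 to 0.127). In the authors' deposited table its adjusted p was 0.142. Cyp51 overlaps Akap9 on the other strand, and no source used here gives the strand setting of the counting.

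Lss, Nsdhl, Ebp and Dhcr7, which also act after Sqle, were lower. Lss, which folds squalene epoxide into lanosterol directly after Sqle, had 4.66, 3.80 and 4.94 CPM in aged caerulein mice, against 11.8 and 11.8 CPM in aged untreated mice. At 7 weeks it had 3.96, 3.596 and 3.43 CPM after caerulein, against 9.89, 6.28 and 8.17 CPM untreated. The groups did not overlap, with a log2 fold change of -1.40 ± 0.20 in aged (adjusted p = 0.000137) and -1.14 ± 0.19 in young mice (adjusted p = 0.000326). Nsdhl, which works with Msmo1 in the same demethylation, was lower by -2.65 ± 0.45 in aged and -1.94 ± 0.41 in young mice on the log2 scale (adjusted p = 0.000471 and 0.00191), from 3 to 68 reads per library. Ebp, the sterol isomerase, was lower by -0.98 ± 0.22 and -1.02 ± 0.20, and Dhcr7, the last enzyme of one branch, by -0.89 ± 0.22 and -0.56 ± 0.20, in aged and in young mice. The Dhcr7 call in young mice was weak (adjusted p = 0.0354) and did not pass with the mouse number as a block (adjusted p = 0.061). Sc5d, the lathosterol oxidase, stayed between 10.7 and 14.7 CPM in all 11 libraries and was not called (-0.22 ± 0.13 in aged and -0.01 ± 0.11 in young mice). Fdft1, squalene synthase, and Tm7sf2 and Hsd17b7, which act in ring reduction and demethylation, were not called either. Tm7sf2 overlaps Vps51 on the same strand, which held 194 reads against 343 for Tm7sf2. Fdft1 was called lower in young mice without mouse 2 (-0.37 ± 0.14, adjusted p = 0.0297) and higher with library totals as scaling (0.53, adjusted p = 0.0239), so its direction depended on the setting. It overlaps Ctsb on the other strand, which held 35417 reads against 3802 for Fdft1.

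**Figure D2:**
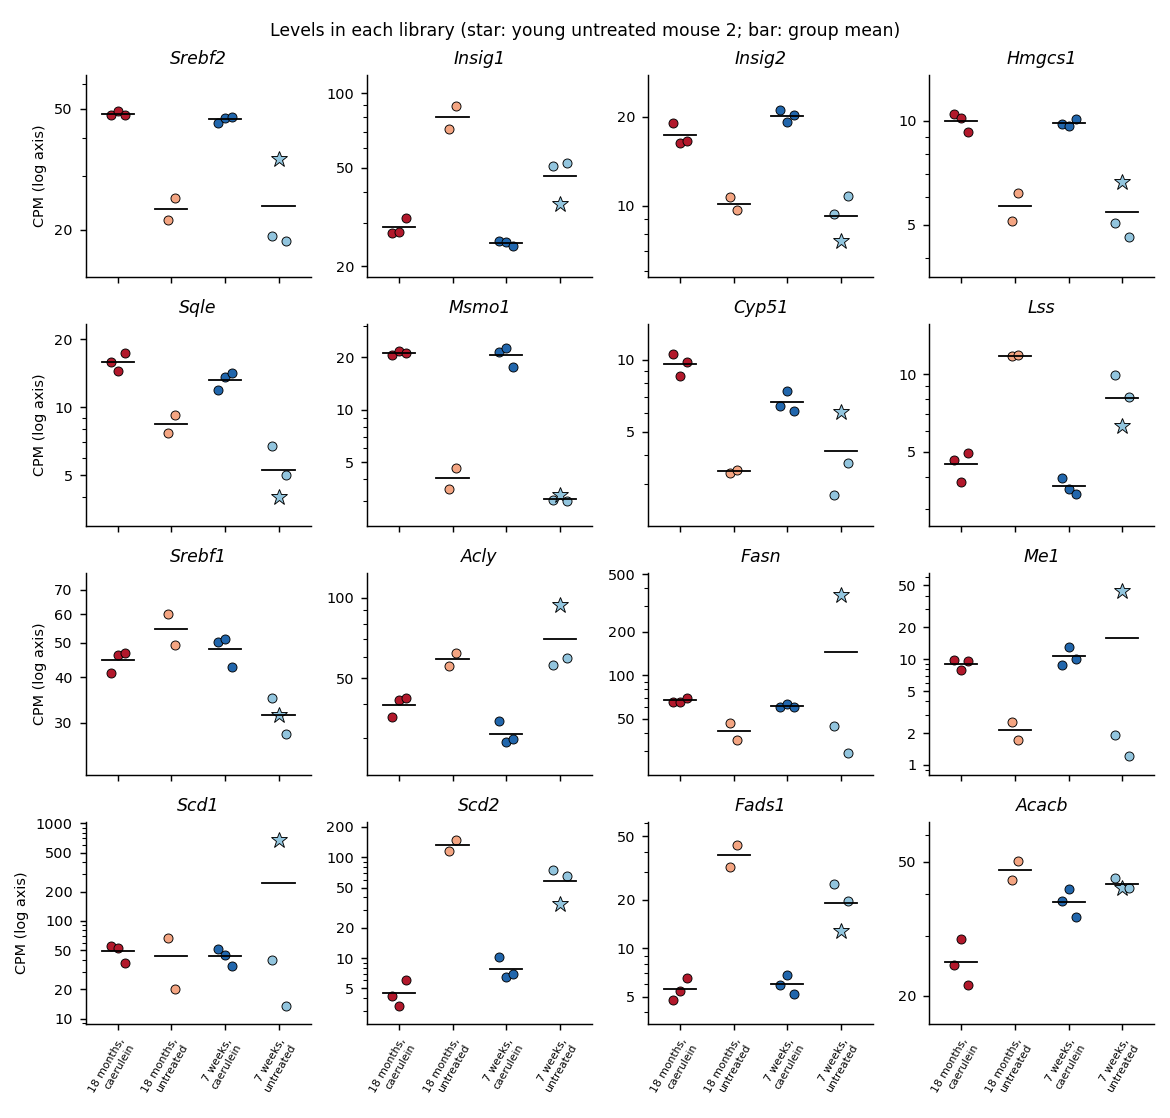
CPM per library on log axes for 16 members, in aged caerulein, aged untreated, young caerulein and young untreated mice from left to right, with the group mean as a bar and young untreated mouse 2 as a star. Msmo1 lies between 17.5 and 22.5 CPM in every caerulein library and between 2.99 and 4.60 CPM in every untreated one, and the star stands far above all other libraries for Fasn, Me1 and Scd1.

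The summed level of the 22 sterol genes was 203, 202 and 202 CPM in aged caerulein mice, against 199 and 233 CPM in aged untreated mice. Among young mice it was 192, 200 and 197 CPM after caerulein, against 172, 166 and 165 CPM untreated, so the treated libraries were higher there and overlapped the untreated ones in aged mice. These sums depend on the TMM scaling, whereas ratios of reads within 1 library are free of any scaling. There were 4.29 to 5.68 reads of Msmo1 per read of Lss in aged caerulein mice, against 0.300 and 0.390 in aged untreated mice. In young mice there were 5.11 to 6.25 after caerulein, against 0.307 to 0.516 untreated. Hmgcs1 gave 20.9 to 27.4 reads per read of Acat2 in aged caerulein mice, against 1.65 and 2.00 in aged untreated mice, and 17.3 to 35.0 in young caerulein mice, against 1.32 to 3.10 in young untreated mice. Insig2 gave 0.527 to 0.699 reads per read of Insig1 in aged caerulein mice, against 0.149 and 0.108 in aged untreated mice, and 0.764 to 0.839 in young caerulein mice, against 0.185 to 0.211 in young untreated mice. None of these 3 ratios overlapped between treated and untreated libraries, mouse 2 included. The pairs were chosen after their values were seen, and a ratio shows unequal change of its 2 genes only.

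**Figure D3:**
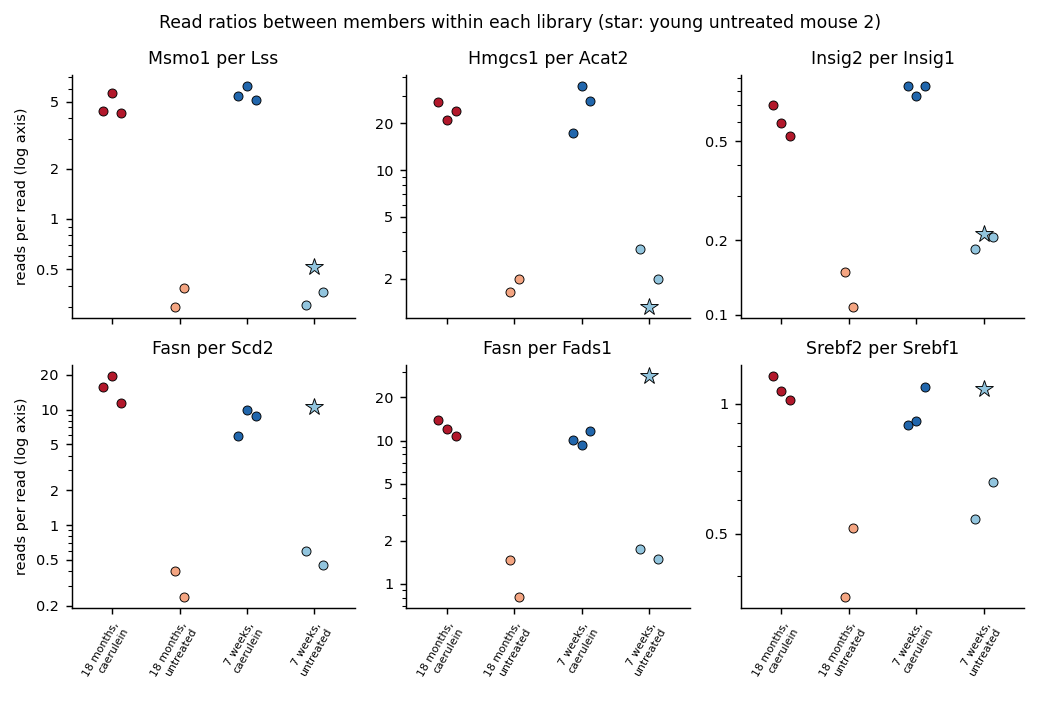
Reads of one member per read of another in the same library, on log axes, for 6 pairs in aged caerulein, aged untreated, young caerulein and young untreated mice, with young untreated mouse 2 as a star. In the upper row the star lies with the untreated libraries, and for Fasn per Scd2 and Fasn per Fads1 it lies at 10.5 and 28.3, among or above the treated ones.

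Among the genes of fatty acid synthesis, Acly was lower at both ages and the answer for Fasn, Acaca and Me1 turned on mouse 2. Acly, which makes cytosolic acetyl-CoA from citrate for both pathways, had 36.0, 41.4 and 42.2 CPM in aged caerulein mice, against 55.7 and 62.5 CPM in aged untreated mice. Its young libraries had 34.6, 29.0 and 29.7 CPM after caerulein, against 56.3, 93.6 and 59.8 CPM untreated. The groups did not overlap, with a log2 fold change of -0.57 ± 0.20 in aged (adjusted p = 0.0333) and -1.17 ± 0.18 in young mice (adjusted p = 0.000216). The aged call did not pass with the mouse number as a block (adjusted p = 0.0682) nor when either aged untreated library or any 1 aged caerulein library was left out (adjusted p = 0.0517 to 0.207), while without mouse 2 it was -0.63 ± 0.11 (adjusted p = 8.17e-05).

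Fasn, the fatty acid synthase, had 65.4, 65.9 and 69.8 CPM in aged caerulein mice, against 46.7 and 35.7 CPM in aged untreated mice. In young mice it had 59.99, 63.2 and 60.6 CPM after caerulein, against 44.3, 362 and 29.1 CPM untreated. Apart from mouse 2, each treated library was above each untreated one. The fit over all libraries did not call it (0.70 ± 0.93 in aged and -1.25 ± 0.82 in young mice). In aged mice it passed when only the aged groups were fitted (0.62, adjusted p = 0.0007). Without mouse 2 it was higher in aged (0.64 ± 0.15, adjusted p = 0.00175) and in young mice (0.69 ± 0.15, adjusted p = 0.00105). Me1, malic enzyme, which supplies NADPH, behaved alike. It averaged 9.09 ± 1.04 CPM in aged caerulein mice (SD, n = 3), against 2.13 ± 0.557 CPM in aged untreated mice (n = 2). Young caerulein mice averaged 10.7 ± 2.09 CPM (n = 3), and Me1 was at 1.91, 44.1 and 1.21 CPM in young untreated mice. Without mouse 2 its log2 fold change was 2.06 ± 0.25 in aged (adjusted p = 1.11e-06) and 2.72 ± 0.25 in young mice (adjusted p = 4.12e-08), and with it 2.12 ± 1.47 and -0.58 ± 1.08, which did not pass. Acaca, the cytosolic acetyl-CoA carboxylase, was at 8.01 to 9.28 CPM in young caerulein mice, against 7.42, 51.1 and 4.89 CPM in young untreated mice, and was called higher without mouse 2 (0.46 ± 0.17, adjusted p = 0.0274). In aged mice Acaca was at 11.6 to 12.2 CPM after caerulein, against 9.07 and 8.72 CPM untreated, and was not called with or without that library (adjusted p = 0.731 and 0.0735).

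Young untreated mouse 2 stood close to its group for Acacb and Srebf1. Acacb, the carboxylase of the mitochondrial surface, whose product restrains fatty acid oxidation, had 24.7, 29.5 and 21.5 CPM in aged caerulein mice, against 44.2 and 50.3 CPM in aged untreated mice. At 7 weeks it had 38.2, 41.4 and 34.4 CPM after caerulein, against 44.9, 41.9 and 41.7 CPM untreated. The aged groups were well apart (-0.90 ± 0.15, adjusted p = 0.000312), and the young difference was small (-0.17 ± 0.13, adjusted p = 0.292). Srebf1 had 41.1, 46.1 and 46.9 CPM in aged caerulein mice, against 60.2 and 49.2 CPM in aged untreated mice. Among young mice it had 50.1, 51.2 and 42.8 CPM after caerulein, against 35.2, 31.5 and 27.9 CPM untreated. It was called higher in young mice (0.61 ± 0.13, adjusted p = 0.00227) and lay below its untreated libraries in aged mice without passing (-0.29 ± 0.15, adjusted p = 0.122; without mouse 2 it passed at -0.35 ± 0.12, adjusted p = 0.0193). With library totals alone as scaling the aged value was 0.32. Gene counts do not part the SREBP-1a and SREBP-1c transcripts of Srebf1, and Rai1 overlaps it on the other strand.

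In desaturation and elongation, Scd2 in aged mice had the largest decrease of all members. Of the 6 genes, edgeR called 4 lower and 0 higher at each age, with and without mouse 2, and DESeq2 also called 0 higher. The shares of all genes called lower by edgeR were 21.3% in aged and 23.9% in young mice. Without mouse 2 they were 27.7% and 26.7%. The genes with an unadjusted p below 0.05 over all libraries were the 4 in aged mice and these and Elovl6 in young mice, and no other. Scd2 (ENSMUSG00000025203, mm10 chr19:44293676-44306864, plus strand), a stearoyl-CoA desaturase that makes monounsaturated fatty acids, had 4.16, 3.36 and 6.11 CPM in aged caerulein mice, against 116 and 149 CPM in aged untreated mice. Its young libraries had 10.2, 6.44 and 6.91 CPM after caerulein, against 74.1, 34.5 and 64.8 CPM untreated. The groups were far apart, with a log2 fold change of -4.87 ± 0.37 in aged (adjusted p = 2.43e-06) and -2.88 ± 0.32 in young mice (adjusted p = 3.62e-05).

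Scd1 (ENSMUSG00000037071, chr19:44394451-44407709, minus strand), a neighbour with the same reaction, had another pattern. It had 55.9, 53.1 and 37.4 CPM in aged caerulein mice, against 67.7 and 20.3 CPM in aged untreated mice. In young mice it had 51.2, 45.4 and 35.0 CPM after caerulein, against 40.2, 679 and 13.5 CPM untreated. The groups overlapped at both ages, and Scd1 was not called with mouse 2 (0.16 ± 1.36 in aged and -2.48 ± 1.26 in young mice) or without it (0.11 ± 0.62 and 0.66 ± 0.63). Among untreated mice its order was that of the adipocyte marker sum, highest in young mouse 2 (581.9 CPM of markers), then aged mouse 2 (52.5), young mouse 1 (46.0), aged mouse 3 (18.4) and young mouse 3 (14.04). The part of fat tissue in the Scd1 values was not tested.

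Fads1 (ENSMUSG00000010663, chr19:10182888-10196870, plus strand), the delta-5 desaturase of polyunsaturated fatty acids, had 4.73, 5.46 and 6.55 CPM in aged caerulein mice, against 32.1 and 43.9 CPM in aged untreated mice. At 7 weeks it had 5.92, 6.80 and 5.20 CPM after caerulein, against 25.2, 12.8 and 19.7 CPM untreated. The groups did not overlap, with a log2 fold change of -2.78 ± 0.26 in aged (adjusted p = 5.57e-06) and -1.68 ± 0.24 in young mice (adjusted p = 0.000125). Fads2, the delta-6 desaturase encoded beside it, was lower by -1.61 ± 0.31 in aged (adjusted p = 0.00122) and -1.36 ± 0.27 in young mice (adjusted p = 0.00156), and Elovl5, an elongase of the same polyunsaturated route, by -1.06 ± 0.26 (adjusted p = 0.00481) and -0.71 ± 0.23 (adjusted p = 0.0205). The young Elovl5 call passed under 15 of the 22 alternatives. It was lost with an adipocyte marker score as covariate (adjusted p = 0.187), with only the young groups in the fit (adjusted p = 0.0556), without young caerulein mouse 2 or 3 (adjusted p = 0.0572 and 0.0612), with library totals, and with DESeq2 when mouse 2 was left out (adjusted p = 0.0963). The aged call was lost without aged untreated mouse 2 (adjusted p = 0.0557). Young untreated mouse 2 was the lowest of its group for Scd2, Fads1 and Fads2, whereas it was the highest for Scd1, Elovl5 and Elovl6. Elovl6, which lengthens palmitate, was at 0.260 to 1.28 CPM in the other 10 libraries and at 9.39 CPM in mouse 2, and was not called (-0.32 ± 1.33 in aged and -2.73 ± 1.16 in young mice).

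Within libraries, Fasn gave 11.4 to 19.6 reads per read of Scd2 in aged caerulein mice, against 0.403 and 0.240 in aged untreated mice. Among young mice it gave 5.88 to 9.82 after caerulein, against 0.597 and 0.449 untreated in mice 1 and 3 and 10.5 in mouse 2. Apart from mouse 2, the treated and untreated ranges were thus separate by more than the spread within a group, whatever the scaling. The summed level of the 12 fatty acid genes was 262, 271 and 264 CPM in aged caerulein mice, against 459 and 442 CPM in aged untreated mice. In young mice it was 285, 280 and 245 CPM after caerulein, against 364, 1388 and 292 CPM untreated. On the TMM scale, treated sums were below untreated ones at both ages, in contrast to the sterol sums. Scd2 alone averaged 4.54 CPM in aged caerulein and 132 CPM in aged untreated mice. By mean log2 CPM of the tested genes, aged caerulein libraries were below aged untreated ones in both pathways. Sterol means were 2.305 to 2.425 against 2.468 and 2.721. Fatty acid means were 3.55 to 3.767 against 4.442 and 4.237. In young mice, treated and untreated libraries overlapped in both pathways by that measure. Unlike the read ratios, these sums and means depend on the scaling. The TMM factors were 0.696 to 1.13 in untreated and 1.05 to 1.29 in caerulein libraries.

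**Figure D4:**
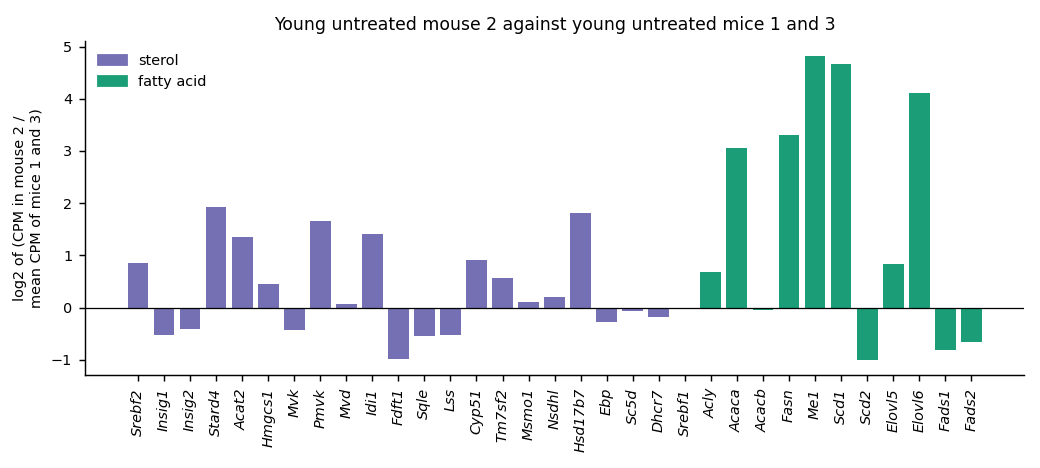
Log2 of the ratio between the CPM of young untreated mouse 2 and the mean CPM of young untreated mice 1 and 3, for each tested member in pathway order. The ratio itself was 28.3 for Me1, 25.3 for Scd1, 17.4 for Elovl6, 9.85 for Fasn and 8.30 for Acaca, and under 4 for each sterol gene.

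The library of mouse 2 raised only part of the fatty acid pathway. Its ratio to the mean of mice 1 and 3 was 8.30 to 28.3 for Acaca, Fasn, Elovl6, Scd1 and Me1, which make saturated and monounsaturated fatty acids or supply the NADPH for them. The adipocyte marker sum of that library is given above, and its part in these values was not tested. The ratio was 1.77 for Elovl5, 1.61 for Acly, 0.998 for Srebf1 and 0.968 for Acacb. It was 0.497 for Scd2, which also makes monounsaturated fatty acids, 0.569 for Fads1 and 0.633 for Fads2. Sterol genes ranged from 0.507 for Fdft1 to 3.81 for Stard4.

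Levels between genes were compared on the deposited FPKM, which divides by gene length. In aged caerulein mice Scd1 led with a mean of 9.87 FPKM, followed by Insig1 (9.08) and Srebf1 (7.76), whereas in aged untreated mice Insig1 led (26.2 FPKM), followed by Scd2 (24.4) and Acly (11.3). In young caerulein mice Scd1 led (8.84 FPKM), followed by Srebf1 (8.30) and Insig1 (7.83). In young untreated mice Scd1 stood at 49.98 FPKM on the strength of mouse 2, followed by Insig1 (14.98) and Fads2 (13.8). Scd2 was thus second of the 34 members in aged untreated and 22nd in aged caerulein mice, while Msmo1 was 26th and 9th. The member with the lowest level in every group was Fdps, at 0.0309 to 0.0497 FPKM on average. Idi1, Tm7sf2, Hsd17b7, Stard4 and Elovl6 were also low, with Elovl6 at 0.538 FPKM in young untreated mice the highest mean among them. That mean rests on mouse 2 (1.44 FPKM, against 0.0788 and 0.0909 in mice 1 and 3). Fdps overlaps the protein-coding gene Gm43738 (0 reads) on the same strand. Tm7sf2 overlaps Vps51 (194 reads) and Gm28374 (0 reads) likewise. The part of reads shared between overlapping genes in these low levels was not tested.

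**Figure D5:**
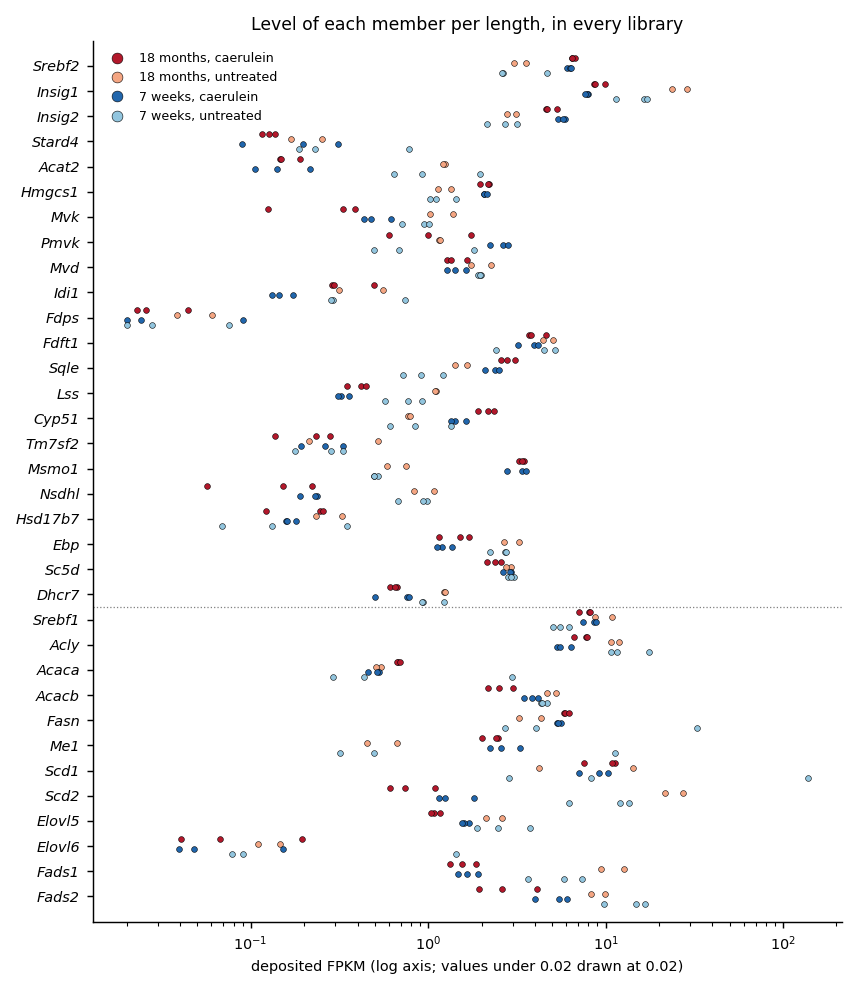
Deposited FPKM of each of the 34 members in every library on a log axis, coloured by group, with the sterol genes above the dotted line and the fatty acid genes below it. Scd2 and Fads1 lie far to the right in untreated libraries, Msmo1 in caerulein libraries, and the single point near the right edge is Scd1 in young untreated mouse 2.

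Few members differed by age in untreated mice. With edgeR over all libraries 0 of 33 members were called between aged and young untreated mice, 7 had an unadjusted p below 0.05, and DESeq2 called 3, namely Insig1, Srebf1 and Scd2, all higher in aged mice. Over all genes edgeR called 0.0496% in either direction, and DESeq2 called 0.482% of the 13063 genes to which it gave an adjusted p. Without mouse 2, edgeR called 2, against 0.361% of all genes. They were Insig1 (0.64 ± 0.12, adjusted p = 0.0184) and Srebf1 (0.78 ± 0.14, adjusted p = 0.012), each higher in both aged untreated libraries than in each young untreated one. The largest increases that did not pass were in Scd2 (1.20 ± 0.32, adjusted p = 0.436) and Fads1 (0.99 ± 0.25, adjusted p = 0.337), whose aged libraries also lay above all young ones.

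After caerulein, 1 of 33 members differed by age. It was Acacb, lower in aged mice by -0.59 ± 0.13 on the log2 scale (adjusted p = 0.0304), where 1.3% of all genes were called lower and 2.57% higher. This call did not pass with the mouse number as a block (adjusted p = 0.0535) nor in 7 of the 11 fits that left out 1 library (adjusted p = 0.0609 to 0.12), namely those without any 1 young caerulein mouse, either aged untreated mouse, or aged caerulein mouse 1 or 3. Without mouse 2, 4 members were lower and 3 higher, against 6.56% and 8.38% of all genes. The lower ones were Acacb, Pmvk (-1.22 ± 0.29, adjusted p = 0.00861), Elovl5 (-0.59 ± 0.17, adjusted p = 0.0225) and Fads2 (-0.89 ± 0.24, adjusted p = 0.0298). The higher ones were Idi1 (1.24 ± 0.39, adjusted p = 0.0406), Cyp51 (0.52 ± 0.16, adjusted p = 0.0325) and Acly (0.33 ± 0.10, adjusted p = 0.0318).

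The caerulein responses of the 2 ages were then compared with each other, by the difference between the log2 fold changes (18 months minus 7 weeks). With edgeR over all libraries 0 of 33 members were called, 8 had an unadjusted p below 0.05, and DESeq2 called 3, namely Srebf1, Acacb and Scd2, against 0.0638% of all genes called by edgeR and 3.11% of the 9082 genes given an adjusted p by DESeq2. Without mouse 2, edgeR called 4, against 3.09% of all genes, and in each the aged value was the lower one. They were Srebf1 (-0.91 ± 0.17, adjusted p = 0.00969), Pmvk (-2.19 ± 0.52, adjusted p = 0.0277), Acacb (-0.73 ± 0.17, adjusted p = 0.029) and Scd2 (-1.75 ± 0.37, adjusted p = 0.0482). For Scd2 both groups of aged mice contributed, since the aged untreated libraries were the highest and the aged caerulein libraries the lowest of all. These comparisons share libraries with those of caerulein at each age and are not independent of them.

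Other genes of lipid metabolism, from lists set down with the members, were counted in the same fit over all libraries. The shares of all genes to set beside these counts are 26.8% higher and 21.3% lower in aged mice and 27.4% higher and 23.9% lower in young mice, and several of the counts lie near them. Of 11 tested genes of other sterol and isoprenoid steps, 3 were higher and 2 lower at each age. The mitochondrial thiolase Acat1 was among the lower ones (-2.20 ± 0.15 in aged and -1.59 ± 0.14 in young mice). Among the higher ones were Por, the electron donor of Sqle and Cyp51 (2.03 ± 0.24 and 1.80 ± 0.20), and the ferredoxin Fdx1 (4.31 ± 0.27 and 3.29 ± 0.22). Of 13 genes of SREBP processing and sterol sensing, 4 were higher and 1 lower in aged mice and 4 were higher and 3 lower in young mice. Scap, which escorts the SREBPs out of the endoplasmic reticulum, was among the higher ones at both ages (0.80 ± 0.15 and 0.63 ± 0.13).

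Of 14 tested genes of sterol uptake, export and storage, 4 were higher and 2 lower in aged mice and 4 were higher and 1 lower in young mice. The cholesterol exporter of lysosomes Npc1 (2.43 ± 0.32 in aged and 0.87 ± 0.25 in young mice) and the cholesterol ester synthase Soat2 (4.44 ± 0.62 and 4.43 ± 0.51) were higher at both ages. Of 24 tested genes of other fatty acid and glyceride steps, 5 were higher and 8 lower in aged mice, and 5 were higher and 12 lower in young mice. Without mouse 2 the young counts were 5 higher and 8 lower. The elongase Elovl7 (3.48 ± 0.23 and 3.46 ± 0.19) and the ligase Acsl4 (2.58 ± 0.20 and 2.21 ± 0.17) were higher, while Tecr, a reductase of the elongation cycle (-1.84 ± 0.15 and -1.41 ± 0.14), the dehydrogenase Idh1 (-2.12 ± 0.29 and -2.36 ± 0.27) and the phosphatase Lpin1 (-3.45 ± 0.31 and -3.52 ± 0.29) were lower, in aged and in young mice.

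In the authors' deposited table of aged caerulein over aged untreated mice, 6 sterol genes were higher and 7 lower at an adjusted p below 0.05, and 2 fatty acid genes, Fasn and Me1, were higher and 6 lower. In the authors' deposited table of young caerulein over young untreated mice, 6 sterol genes were higher and 5 lower, and 1 fatty acid gene was higher and 4 lower, with Fasn at a log2 fold change of -1.24 and not called. The authors' deposited table of aged over young caerulein mice held 1 sterol gene, Pmvk, and 3 fatty acid genes, Acacb, Scd2 and Fads2, all lower. The authors' deposited table of aged over young untreated mice held Srebf1 alone, at 0.79.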

How the data were processed

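RNA of whole mouse pancreas was captured by poly(A) and sequenced as 150-base read pairs, per the labels' protocols. The authors deposited read counts per gene and FPKM. HISAT2 2.0.5, featureCounts 1.5.0-p3 and mm10 are named in the submitters' processing notes. No source used here gives the annotation release or the strand setting. The deposited FPKM divide by a scaled library total (0.696 to 1.33 times the sum of counts) and were used only for levels between genes. The deposited log2 fold changes and adjusted p-values of the authors were used only where named.

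Counts were tested with edgeR 4.0.16 (R 4.3.3) by 1 quasi-likelihood fit over 11 libraries and 4 groups, after filterByExpr and TMM scaling, with 5 comparisons and Benjamini-Hochberg adjustment over all genes tested. CPM are TMM-scaled. DESeq2 1.42.0 was an alternative, among 22. Scripts were tested on simulated counts. Replicates are 1 library per mouse by the labels, and no 2 libraries of a group agreed within sampling noise. Counts between 14223190 and 26537091 per library leave genes with few reads imprecise.

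All 34 members were placed by role. Full values were given for Srebf2, Srebf1, Insig1, Insig2, Hmgcs1, Sqle, Fasn, Scd1, Scd2 and, in each comparison, the 3 called members with the smallest adjusted p in each direction. Members and lists were chosen with earlier results of these data known. Deviations of same-numbered young mice had correlations of 0.107 to 0.157 (3 pairs, across genes). Those of differently numbered young mice ran from -0.240 to 0.145 and overlap them, so these values do not settle whether the number pairs mice. The fit with the number as a block is therefore given where it changed a call. In the other pairs of groups the correlations of same-numbered mice ran from -0.202 to 0.164. Some genes of the other lipid lists are counted there but are not reported here by name.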

Additional observations from a re-analysis of the deposited data

Results flagged for a closer look

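Srebf1 stood out for how its libraries lay at each age. Every young caerulein library lay above every young untreated one, and every aged caerulein library lay below every aged untreated one. The difference between the log2 fold changes (18 months minus 7 weeks) was -0.90 ± 0.20 and did not pass with edgeR over 11 libraries (adjusted p = 0.0983). With young untreated mouse 2 left out the value was -0.91 ± 0.17 and passed (adjusted p = 0.00969). DESeq2 over 11 libraries also called it (-0.90, adjusted p = 0.00348). The aged value of -0.29 did not pass by itself (adjusted p = 0.122). Scaling by library totals made it positive (0.32, with or without that mouse), as in young mice. Part of the difference lay in the untreated mice, where Srebf1 averaged 54.7 ± 7.76 CPM in aged (SD, n = 2) and 31.5 ± 3.64 CPM in young mice (n = 3), while after caerulein it averaged 44.7 ± 3.11 CPM in aged and 48.0 ± 4.57 CPM in young mice (n = 3 each).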

How the results depend on the processing

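Of 1308 values of 60 gene results under 22 alternatives, 1159 kept direction and side of the threshold, 69 no longer passed, 56 newly passed and 24 changed sign. The 60 are the results called over all libraries or without young untreated mouse 2. Results called only under another alternative are not in this tally. Msmo1, Scd2, Fads1 and Acat2 kept their calls at both ages under library totals alone, the scaling that moved most. Library totals alone gave 3 lower sterol genes in young mice, and 3 lower fatty acid genes in young and 3 in aged mice. It gave 0 members by age after caerulein, and log2 fold changes of 0.53 for Fdft1 in young mice and 0.32 for Srebf1 and 0.0603 for Acly in aged mice. A filter of 5 CPM left 4 lower sterol genes in young mice, since fewer genes were tested. Fitting only the groups compared gave 2 higher fatty acid genes in aged mice and 6 members by age after caerulein. No filter gave 2 members by age in untreated mice, and DESeq2 gave 3 there and 3 for the difference between responses. An adipocyte marker score as covariate gave 2 higher fatty acid genes in young mice, 1 in aged mice, 1 member by age in untreated and 2 in caerulein mice, with Acaca at 0.48, Fasn at 0.74 and Me1 at 2.71 in young mice. With the replicate number as a block 0 members differed by age after caerulein and Me1 was at 0.26 in young mice, and apart from Dhcr7 in young mice, Acly in aged mice and Acacb by age the block ended no call.

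Without young untreated mouse 2, Acaca (0.46), Fasn (0.69) and Me1 (2.72) changed sign in young mice. DESeq2 without that mouse gave 0.45, 0.68 and 2.71, with 3 higher fatty acid genes in young and 2 in aged mice, 3 members by age in untreated and 5 in caerulein mice, and 5 for the difference between responses. Library totals without that mouse gave 1.24, 1.46 and 3.49, with Fdft1 at 0.41, Dhcr7 at 0.10 and Elovl5 at 0.35 in young mice and Srebf1 at 0.32 and Acly at 0.0584 in aged mice. That setting gave 3 lower sterol, 5 higher and 3 lower fatty acid genes in young mice, 3 higher and 3 lower fatty acid genes in aged mice, 3 members by age after caerulein and 3 for the difference. Leaving out 1 library at a time gave 5 to 7 higher and 5 to 8 lower sterol genes in young mice, and 6 higher and 6 to 7 lower in aged mice. Fatty acid genes ranged over 1 to 4 higher and 4 to 8 lower in young mice, the 8 without young untreated mouse 3, and over 0 to 2 higher and 4 to 7 lower in aged mice. Members by age ranged over 0 to 2 in untreated and 0 to 7 in caerulein mice, and members for the difference over 0 to 4. Fdft1 in young mice ranged from -0.37 without young untreated mouse 2 to 0.17 without mouse 1, and was 0.03 without mouse 3 and 0.05 without young caerulein mouse 1. The lowest young values without 1 library were -1.75 for Acaca, -1.74 for Fasn and -1.13 for Me1, each without young untreated mouse 3. The cause was not tested in these cases unless given. Genes with few reads, such as Acat2, Nsdhl, Mvk and Stard4, are limited by depth.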
